A study of Onthophagus taurus and Onthophagus nigriventris with 71 samples.

Results

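The 60 probes described here gave log ratios of opposite sign in the head and the legs of pupae of the horned beetle Onthophagus taurus. For each of 3840 probes, the mean log2 ratio was taken over the 12 head arrays and over the 12 legs arrays. A probe scored by the smaller of the 2 means in size, provided their signs were opposite, and the 60 highest scores were kept. Of these, 25 were positive in the head and negative in the legs, and 35 were negative in the head and positive in the legs. They came from 825 probes whose means had opposite signs, of which 402 were positive in the head and 423 negative. The head and legs means are therefore what chose the probes, and they are given below as a description with no test.

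The study set expression in epidermis that forms outgrowths against epidermis that forms none, in both sexes and both male morphs. All animals were unmanipulated, wild-type, laboratory-reared pupae within 24 h of pupation, and each RNA pool held tissue of 4 individuals. In O. taurus, dorsal head epidermis, leg and thoracic epidermis were each hybridised against dorsal abdominal epidermis, and the brain with optic lobes against the subesophageal and thoracic ganglia. Each of the 4 tissues had 4 arrays for females of the whole range of body sizes, 4 for large horned males and 4 for small hornless males. A further 4 arrays set large male heads directly against small male heads. In Onthophagus nigriventris, thoracic epidermis was set against abdominal epidermis, with 7 female, 5 large male and 7 small male arrays.

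Beetle horns are outgrowths of the epidermis that have no counterpart in most other insects. Large males of O. taurus grow a pair of long horns from the head, which small males and females lack, whereas large males of O. nigriventris carry a horn on the thorax. Horn growth is known to draw on genes that also pattern the legs, among them Distal-less and homothorax. The sex-determination gene doublesex is known to act on horn growth differently by sex and morph. Legs form outgrowths in all animals, but heads grow long horns in large males alone, and all were measured against epidermis that forms none. In large males alone, a probe of opposite sign in head and legs therefore sets apart tissues that both form outgrowths.

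The sources used here do not state which RNA is the numerator of the ratio. From the wording of the design the likely one is the focal tissue, and large males on the direct arrays, so values are given as positive or negative. With the opposite numerator all signs here would be reversed and counts given by sign would swap, but no total or size would change. Of the 3840 probe identifiers, 0 were found among 16956 O. taurus genes of a reference table, so probes carry their identifiers only. The tissues are as labelled and could not be checked by marker genes, since the genes behind the probes could not be looked up. Several probes may report 1 gene, which was not tested. In pools of tissue, fewer cells of a type and less RNA per cell cannot be told apart. Separate rearings are not stated for the 4 pools of a group, and the p-values then reflect only how these pools differ, which may be technical. The number of arrays limits the precision.

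Over the 60 probes, 3 head or legs arrays stood apart from the others of their group. Replicate 3 of the large male legs correlated with the other 3 at a mean r of 0.333 over the 60 probes and 0.748 over all probes. Its median over the head-negative probes was -0.08, whereas the other large male legs arrays had medians from 0.79 to 1.26. Replicate 4 of the small male heads had a mean r of 0.177 over the 60 probes and 0.768 over all probes. Replicate 4 of the large male heads lay outside the range of its 3 companions for 52 of the 60 probes, with a mean r of 0.652 over the 60 and 0.839 over all probes. The rule chose 56 of the 60 probes again without large male legs 3, 55 without small male head 4 and 52 without large male head 4. Among the other tissues, female thorax 1 differed by over 1 from the mean of its companions for 16 members, and small male brain 3 had the lowest mean r over all probes, 0.319.

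The scores ran from 1.11 to 0.38 with a median of 0.50, so for most members the smaller of the 2 means was a modest ratio. In the 25 head-positive probes the head mean ran from 0.39 to 1.61 with a median of 0.68, and the legs mean from -1.84 to -0.38 with a median of -0.68. In the 35 head-negative probes the head mean ran from -1.78 to -0.38 with a median of -0.62, and the legs mean from 0.39 to 1.60 with a median of 0.68. The last probes inside the 60 were OtP006-C08, with -1.23 in the head and 0.39 in the legs, OtP017-D10, with -0.38 and 0.73, and OtL006-A04, with 0.98 and -0.38. The first outside were OtP019-A07, with 0.38 and -0.39, OtP011-F05, with -1.46 and 0.37, and OtP012-B11, with -0.37 and 0.42. All 60 kept both signs when the means were taken over the arrays with the focal tissue in Cy5 alone, and all 60 over those with it in Cy3. The same arrays chose the probes, which favours this outcome. The rule run on the arrays of a single dye did not choose all 60 again, as given in the last section.

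**Figure D1:**
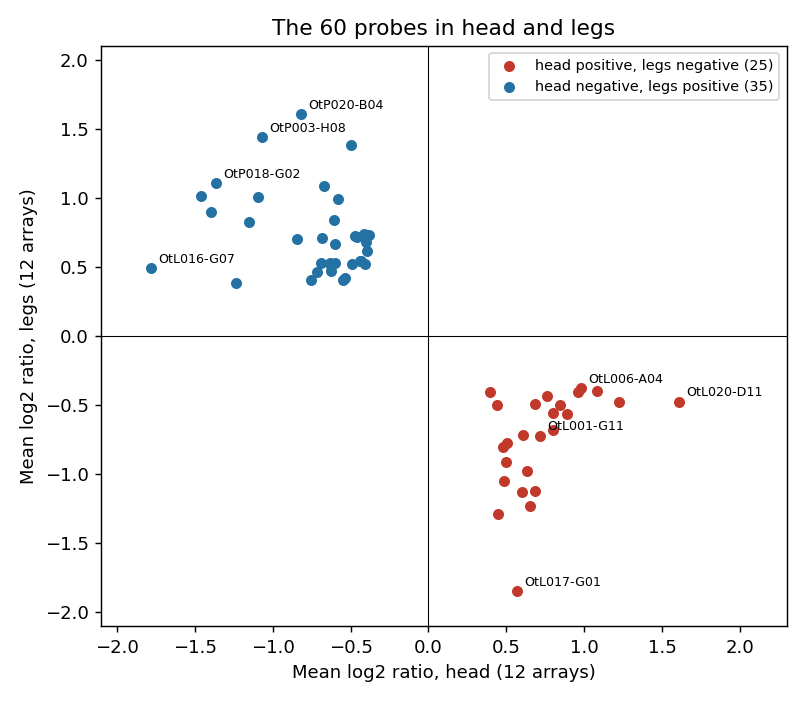
Mean log2 ratio against abdomen of the 60 probes in the head (horizontal axis) and in the legs (vertical axis), 12 arrays each, 1 point per probe. The 25 head-positive probes lie at the lower right and the 35 head-negative probes at the upper left; OtL020-D11 has the highest head mean (1.61), OtL016-G07 the lowest head mean (-1.78), OtL017-G01 the lowest legs mean (-1.84) and OtP020-B04 the highest legs mean (1.60).

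The opposition was a property of means, and it held on every array for few members. In 4 probes all 24 head and legs arrays had the sign of their mean, and in 11 probes the 12 head values and the 12 legs values did not overlap. Over all probes, 2.5% had head and legs values that did not overlap, a contrast that the rule itself used. All 12 legs arrays shared a sign in 20 members, but all 12 head arrays did so in 9. Taken class by class, the head and legs means had opposite signs in females for 46 members, in large males for 47 and in small males for 56, and in all 3 classes for 37.

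The 4 probes with a constant sign on all 24 arrays were OtL015-D03, OtP006-B04, OtL016-G07 and OtP013-F08. OtL015-D03 had head values of -1.66, -0.88, -1.44 and -1.26 in females, -1.06, -0.96, -1.45 and -0.87 in large males and -1.01, -0.67, -1.44 and -1.14 in small males. Its legs values were 0.53, 1.63, 1.06 and 0.51 in females, 0.97, 0.81, 1.24 and 0.15 in large males and 0.85, 1.01, 0.23 and 0.93 in small males. The highest head value of this probe thus lay below its lowest legs value, and the 3 classes overlapped in each tissue. OtP006-B04 ran from -1.59 to -0.19 in the head, with a median of -0.82, and from 0.11 to 1.42 in the legs, with a median of 0.69. OtP013-F08, the one head-positive probe of the 4, ran from 0.07 to 1.45 in the head and from -1.16 to -0.14 in the legs.

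Among the other head-positive probes of highest score, OtP020-G07 had head values from -0.09 to 1.29 with a median of 0.75 and legs values from -1.70 to -0.37 with a median of -1.17. OtL017-G01 had the lowest legs mean of the 25, with legs values from -2.50 to -1.32 and head values from -0.12 to 1.19. OtL001-F09 ran from -0.04 to 1.23 in the head and from -1.50 to -0.69 in the legs. In these 3 probes the legs mean was the larger in size, whereas the head mean was the larger in 11 of the 25. OtP004-G03 was positive on 10 head arrays and on 3 legs arrays, and OtL003-D11 on 10 head arrays and on 0 legs arrays.

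The head-negative probe of highest score, OtP018-G02, varied far more between pools of 1 class than OtL015-D03 did. Its head values were -2.58, -2.88, -0.10 and 0.22 in females, -1.46, -1.29, -1.42 and -0.03 in large males and -1.55, -3.68, -1.34 and -0.31 in small males. Its legs values were 1.34, 1.16, 1.63 and 1.11 in females, 1.88, 1.52, -1.66 and 0.83 in large males and 1.82, 0.37, 1.92 and 1.36 in small males. The SD between female heads was 1.62, and the single negative legs value came from the large male array that stood apart. On that legs array OtP006-A03, OtP013-C05 and OtP020-A03 were likewise negative, at -1.37, -1.56 and -1.36, and positive on the other 11. OtP003-H08 was negative on 10 of 12 head arrays and positive on 11 of 12 legs arrays, the exception again being that array, at -1.06.

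**Figure D2:**
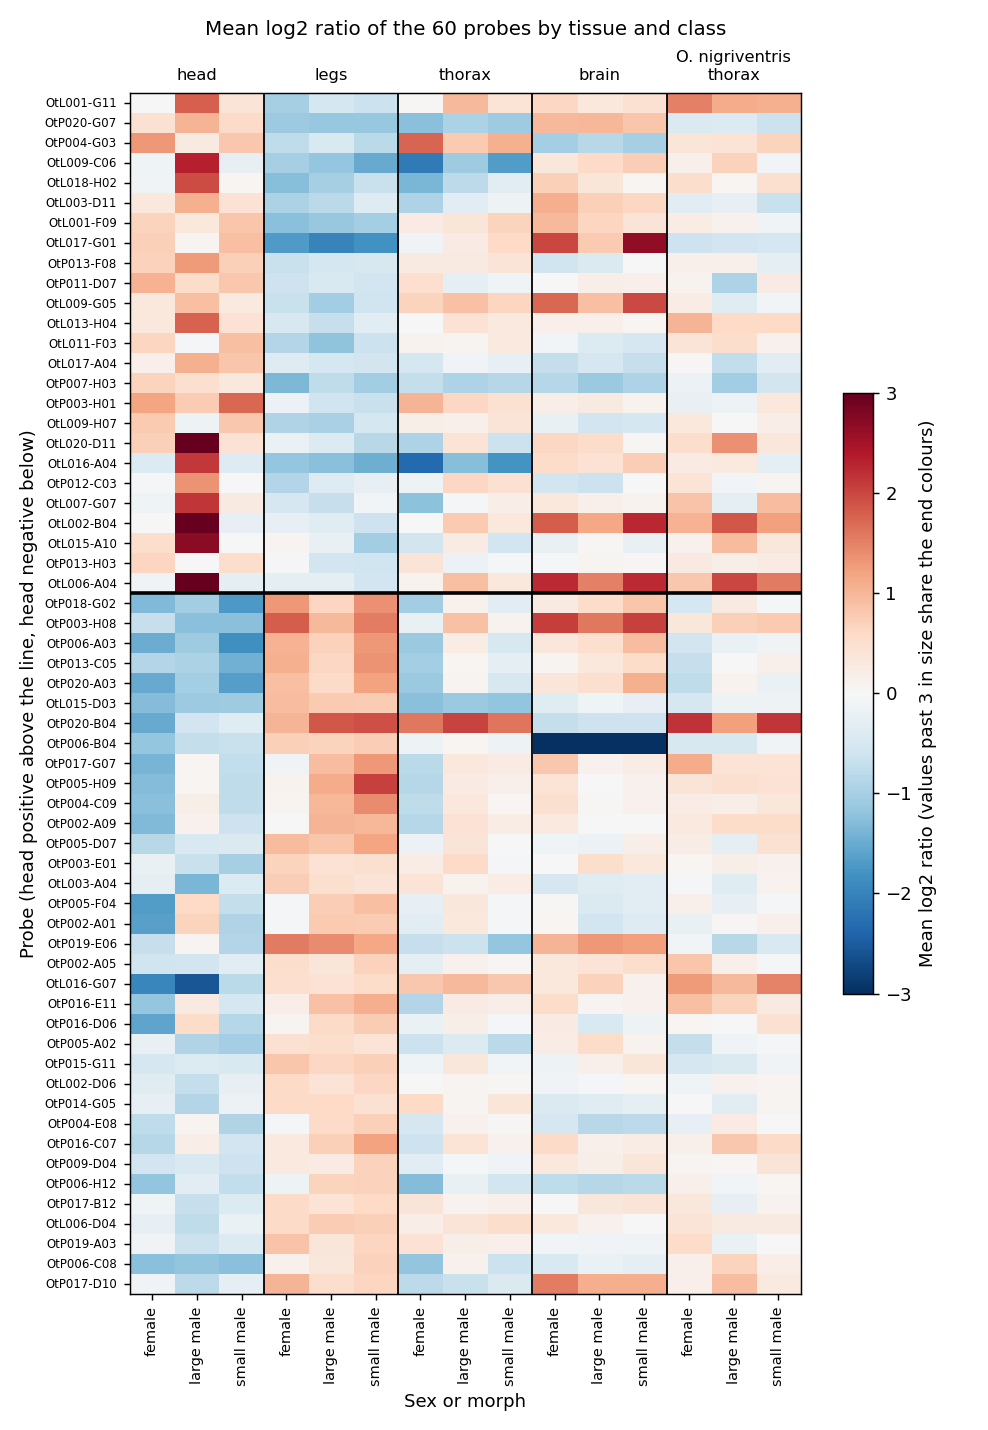
Mean log2 ratio of each of the 60 probes (rows, by score within a direction) in each tissue and class (columns, 4 arrays each in O. taurus and 7, 5 and 7 in O. nigriventris), with red positive and blue negative and colours ending at 3 in size. In the upper block the median over the 25 probes is 1.07 in large male heads, against 0.45 in female and 0.44 in small male heads. The mean over these head arrays entered the choice of probes. OtP006-B04 is below -3 in the brain of every class.

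The sexes and morphs did not contribute equally to the head signs. Over the 25 head-positive probes, the median head value was 0.45 in females, 1.07 in large males and 0.44 in small males, and large males had the most positive head mean in 16. Over the 35 head-negative probes, the medians were -0.88 in females, -0.64 in large males and -0.74 in small males, and females had the most negative head mean in 17. These are the head values whose mean chose the probes, and a class with large values favours the choice. The same counts were not made over all probes, so they describe the members only. In the legs the head-positive medians were -0.76, -0.68 and -0.65 and the head-negative medians 0.58, 0.64 and 0.76, for females, large males and small males in turn. In 3 probes, OtL006-A04, OtL009-C06 and OtL016-A04, the class means had opposite signs in large males alone. In these 3 the positive head mean came from the large males, since the female and small male head means lay between -0.41 and -0.09.

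The direct arrays, which the rule did not use, set large male heads against small male heads, the comparison of horn-bearing with hornless heads. In limma with Benjamini-Hochberg adjustment over all probes, 3 of the 60 members (5%) passed an adjusted p of 0.05, all positive, against 0.234% of all probes, also all positive. At an unadjusted p under 0.05 there were 37 members, against 18.1% of all probes. A difference confined to large male heads also shifts the head mean that chose the members, so these counts are not independent of the choice. Of 60 probes chosen on the female arrays alone, as described below, 0 passed on the direct arrays. With 0.234% of all probes past the threshold, hardly any call is to be looked for in 60 probes, so this 0 decides nothing. OtL006-A04 had 3.74, 2.88, 3.23 and 3.89 on the 4 direct arrays, a mean of 3.43 ± 0.22 (SE, adjusted p = 0.0257). OtL002-B04 had 3.85, 2.52, 3.05 and 3.59, a mean of 3.25 ± 0.25 (SE, limma adjusted p = 0.032). OtP005-F04 had 1.06, 2.12, 0.99 and 2.57, a mean of 1.69 ± 0.14 (SE, limma adjusted p = 0.0427). Its values split by dye, lower on arrays 1 and 3 (large male RNA in Cy3) than on arrays 2 and 4 (Cy5). The dye term of the fit takes up this split, so the SE is small beside an SD of 0.78 over the 4 arrays. The median absolute value on the direct arrays was 0.63 over the members and 0.21 over all probes. Leaving out 1 of the 4 arrays changed the number that passed to 0 without array 1, 15 without array 2, 0 without array 3 and 2 without array 4.

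The same contrast was formed from the arrays against abdomen, as large minus small male head. Here 21 of the 60 members passed (35%), 15 positive and 6 negative, against 7.4% of all probes, with 3.46% positive and 3.93% negative. They were 14 of the 25 head-positive and 7 of the 35 head-negative probes. These 8 arrays also entered the rule through the head mean, so a difference confined to large male heads raises the head mean and with it the score. When 60 probes were chosen by the same rule on the female arrays alone, an alternative added after seeing the data, 26 were shared with the members. Of those 60, 10 passed (16.7%), 5 positive and 5 negative, and 0 passed on the direct arrays. The members' count was 12 (11 positive, 1 negative) after scaling each array to 1 spread and 11 (10 positive, 1 negative) when the compared groups were fitted alone. Without the arrays that stood apart, 19 members passed without large male head 4 and 21 without small male head 4.

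OtL006-A04 had the largest difference. Its head values were 2.72, 3.32, 4.03 and 3.14 in large males, against -0.68, 0.47, 0.06 and -0.93 in small males. Female heads had -0.28, 0.20, 0.19 and -0.48. The 4 large male heads lay above every other head array, and female and small male heads overlapped. The difference was 3.57 ± 0.32 (SE, limma adjusted p = 1.87e-10), beside the 3.43 of the direct arrays. OtL002-B04 followed it closely, with 2.65, 3.32, 3.89 and 2.62 in large male heads, against -0.62, 0.17, 0.23 and -0.75 in small male heads, a difference of 3.36 ± 0.31 (SE, limma adjusted p = 3.19e-10). In the legs both probes lay between -1.03 and 0.27 on every male array. The head arrays behind these p-values also entered the choice of members, as did those behind the p-values of this contrast given next.

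OtL020-D11 had 4.46, 3.55, 4.00 and 2.72 in large male heads, against 1.02, -0.10, 0.25 and 0.58 in small male heads, a difference of 3.25 ± 0.38 (SE, limma adjusted p = 7.02e-08). Its direct arrays spread from 0.43 to 4.40. OtL009-C06 had 2.40, 2.05, 2.002 and 2.83 in large male heads, against -0.70, -0.83, -1.08 and 1.66 in small male heads. Its 1.66 came from the small male array that stood apart, and the female head array 4 was likewise high, at 1.32. The difference was 2.56 ± 0.59 (SE, limma adjusted p = 0.00348). OtL001-G11, the head-positive probe of highest score, had 1.88, 1.79, 2.09 and 1.36 in large male heads, against 0.47, 0.13, 0.80 and 0.11 in small male heads, with no overlap. Its difference was 1.41 ± 0.25 (SE, limma adjusted p = 0.000134).

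OtL018-H02 had 1.75, 2.48, 2.52 and 1.03 in large male heads, against 0.28, -0.30, 0.52 and -0.27 in small male heads, again without overlap, a difference of 1.89 ± 0.31 (SE). The remaining positive calls among the head-positive probes were OtL015-A10 (2.69), OtL016-A04 (2.51), OtL007-G07 (1.88), OtL013-H04 (1.34) and OtP012-C03 (1.34), given as log2 differences. The head-negative probes OtP005-F04, OtP002-A01, OtP016-D06 and OtP019-E06 also passed with a positive difference. OtP005-F04 had 0.22, 0.88, -0.21 and 1.47 in large male heads, against -1.21, -0.43, -0.71 and -0.51 in small male heads, so that the negative head mean of this probe came from females and small males.

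Negative differences passed in 6 members, but in 1 after scaling each array to 1 spread and in 1 when the compared groups were fitted alone. OtL016-G07 had -1.63, -2.66, -2.70 and -3.29 in large male heads, against -0.64, -1.08, -0.60 and -0.94 in small male heads, without overlap. The difference was -1.75 ± 0.33 (SE, limma adjusted p = 0.000373), and the direct arrays gave -1.28, -0.99, -2.25 and -2.30. This probe was the most negative of all members in the head and was negative in every class there. OtL009-H07 had -0.05, 0.22, -0.02 and -0.77 in large male heads, against 0.69, 0.99, 1.18 and 0.34 in small male heads, a difference of -0.96 ± 0.24 (SE, limma adjusted p = 0.00942). Its call was lost without large male head 4 (difference -0.75) and without small male head 3 (-0.82). The other 4 were OtL011-F03 (-0.95), OtP003-H01 (-0.95), OtL003-A04 (-0.94) and OtP014-G05 (-0.70).

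On the direct arrays all 21 called members had the sign of their difference against abdomen, and so did 99.3% of the 284 probes called in all. An unadjusted p under 0.05 on the direct arrays was reached by 20 of the 21 and by 59.9% of the 284. The labels do not say whether the direct arrays used the same pools. Of all 60 members, 54 had the same sign in both. Large and small male head values did not overlap in 20 of the 60 members, against 8.98% of all probes, a contrast of arrays that entered the rule through their mean.

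**Figure D3:**
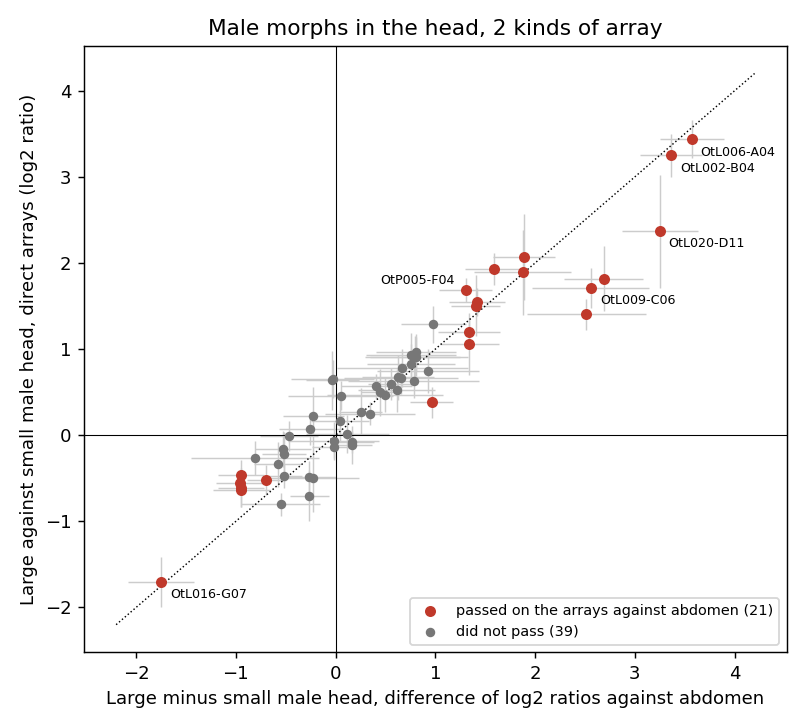
Large minus small male head for the 60 members from the arrays against abdomen (horizontal axis, log2 difference) and on the 4 direct arrays (vertical axis, log2 ratio), with bars of 1 SE and a dotted line of equality. All 21 members that passed on the arrays against abdomen (red) have the same sign on both axes, with OtL006-A04 at 3.57 and 3.43 and OtL016-G07 at -1.75 and -1.70.

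The morph difference was then compared between tissues. Large minus small male was not past the threshold for any member in the legs, where 3 had an unadjusted p under 0.05 in limma, against 0% of all probes past the threshold and 6.12% at the unadjusted p. OtL011-F03 had the smallest p there, with a difference of -0.56 ± 0.23 (SE, limma adjusted p = 0.77). Head and legs arrays entered the rule through their means, so the counts in these tissues are not independent of the choice of members. Thorax and brain arrays did not enter it. In the thorax 0 members passed and 4 had an unadjusted p under 0.05 in limma, against 0.026% and 5.83% of all probes, with OtL020-D11 at 1.04 ± 0.38 (SE, adjusted p = 0.619). In the brain 0 members passed and 5 had an unadjusted p under 0.05 in limma, against 0.026% and 2.63%, with OtL002-B04 at -1.09 ± 0.31 (SE, adjusted p = 0.311).

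The test of the difference itself, the morph contrast in the head minus that in the legs, passed for 10 members (16.7%), all positive, against 1.72% of all probes, with 1.25% positive and 0.469% negative. OtL006-A04 gave 3.28 ± 0.45 (SE, limma adjusted p = 1.19e-05) and OtL002-B04 3.09 ± 0.44 (SE, adjusted p = 2.21e-05). The others were OtL020-D11 (2.82), OtL007-G07 (2.49), OtL018-H02 (2.23), OtL013-H04 (1.69), OtP016-D06 (1.61), OtP002-A01 (1.58), OtP005-F04 (1.48) and OtL001-G11 (1.28). Every array of this test entered the rule through the head or legs mean, so the count is not independent of the choice of members. Among the 60 probes chosen on female arrays alone, 1 passed (1.67%), a share close to that of all probes. The members' count was 2 after scaling each array to 1 spread and 3 when the compared groups were fitted alone. It was 6 without large male legs 3, without small male legs 1 or without large male head 2. It was 8 without large male head 4 and 7 without small male head 4.

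**Figure D4:**
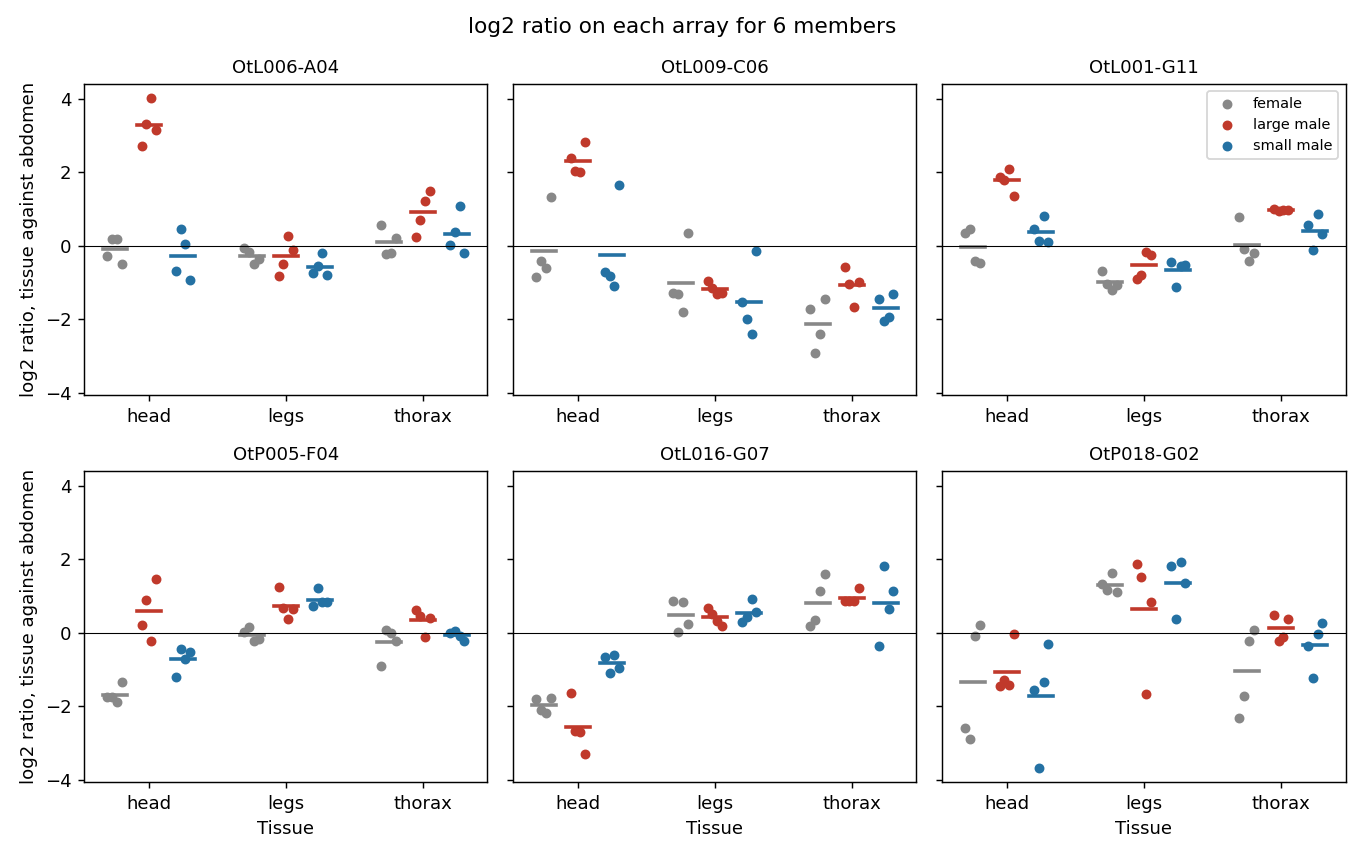
log2 ratio against abdomen on each of the 36 head, legs and thorax arrays for 6 members, with points for single arrays and lines for the mean of 4, in females (grey), large males (red) and small males (blue). In OtL006-A04 the 4 large male heads (2.72 to 4.03) stand above all other arrays; in OtL016-G07 all 12 heads are negative; in OtP018-G02 the pools of 1 class are widely spread.

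Females were compared with the mean of both male groups, which shares the large and small male arrays with the morph contrast. The 12 head arrays of this contrast also entered the rule through their mean, so the counts in the head describe the members and are not independent of their choice. In the head 9 members passed (15%), all negative, 6 of them head-positive probes and 3 head-negative, against 2.55% of all probes, with 0.99% positive and 1.56% negative. OtP005-F04 had -1.74, -1.75, -1.88 and -1.33 in female heads, below all male heads, a difference of -1.62 ± 0.23 (SE, limma adjusted p = 2.2e-05). For OtL006-A04 the difference was -1.61 ± 0.28 (SE, limma adjusted p = 0.000431), but its female values overlapped those of small males. The other 7 were OtP002-A01, OtP016-D06, OtL002-B04, OtL020-D11, OtL001-G11, OtL018-H02 and OtL017-A04, with differences from -1.52 to -0.79. Of the 9, 8 were also called for large minus small male head. In OtL002-B04 and OtL020-D11 the female head means (0.01 and 0.71) lay above those of small males (-0.24 and 0.43), with large males at 3.12 and 3.68. In the rest of the 7 the female mean was the lowest, by little in OtL018-H02 (-0.10, against 0.06 in small males). The head minus legs test of the sex contrast passed for OtL006-A04, at -1.77 ± 0.39 (SE, limma adjusted p = 0.033), and OtL002-B04, at -1.69 ± 0.38 (SE, limma adjusted p = 0.0373), that is for 2 members (3.33%), both negative, against 0.234% of all probes, with 0.104% positive and 0.13% negative. This count ran from 0 to 3 when single arrays were left out, and it was 0 without any one of the 4 female legs arrays. Every head and legs array of this test entered the rule, so this count too is not independent of the choice.

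In the legs no member passed the sex contrast, and 14 had an unadjusted p under 0.05 in limma, against 0.208% past the threshold (0.026% positive, 0.182% negative) and 12% at the unadjusted p over all probes. With array weights 11 members passed there, 1 positive and 10 negative. The legs arrays also entered the rule through their mean, so these counts in the legs are not independent of the choice of members. Without weights OtP005-F04 came nearest, at -0.87 ± 0.23 (SE, limma adjusted p = 0.0985). Its female legs values of 0.02, 0.16, -0.22 and -0.18 lay below the 8 male values, which ran from 0.37 to 1.24. In the brain no member passed and 4 had an unadjusted p under 0.05 in limma, against 0% and 2.94% of all probes, with OtP006-B04 at -0.92 ± 0.23 (SE, adjusted p = 0.274). In the thorax 1 member (1.67%) passed, with a positive value, against 2.11% of all probes, of which 0.938% positive and 1.17% negative, and 20 had an unadjusted p under 0.05, against 18.2%. This was OtP011-D07, with 0.81, 0.85, 0.08 and 0.27 in females, against -0.18, -0.17, -0.33 and -0.46 in large males and -0.05, -0.35, -0.02 and -0.08 in small males, a difference of 0.71 ± 0.17 (SE, limma adjusted p = 0.0264). The call was lost without female thorax 1 (difference 0.58) or 2 (0.61), and 2 other members, both negative, passed without female thorax 1.

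The thorax, which the rule did not use, is the third epidermis measured against abdomen. Its mean lay between the head and legs means in 51 of the 60 members, nearer to the head in 37 and nearer to the legs in 23. Since the rule sets head and legs on either side of 0, a place between them is favoured by the choice: it was held by 67% of the 825 probes of opposite sign and by 49.7% of all probes, and 47.2% of the 825 were nearer to the head. It differed from 0 in 29 members (48.3%), 15 positive and 14 negative, against 66.9% of all probes, with 36.4% positive and 30.5% negative. By direction, 18 of the 25 head-positive and 11 of the 35 head-negative probes passed. Without female thorax 1 the count was 30. Of the 29, 16 had the sign of the head and 13 that of the legs. Arrays of the same class and replicate number tended to deviate together, with a mean r of 0.318 between head and thorax and 0.176 between legs and thorax, so the thorax values were not wholly separate from the arrays that chose the probes.

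Where the thorax lay outside the span of head and legs, it did so in both ways. OtP020-B04, negative in the head, had thorax values of 0.23, 0.91, 2.37 and 2.81 in females, 1.99, 1.97, 1.22 and 2.90 in large males and 0.50, 1.92, 1.69 and 2.32 in small males. All 12 were positive, as were the 12 legs values, and the thorax mean was 1.74 ± 0.19 (SE, limma adjusted p = 1.27e-10). OtP004-G03 had the sign of the head, with 2.47, 1.55, 1.42 and 1.56 in females, 0.93, 0.67, 0.74 and 0.78 in large males and 1.16, 1.21, 0.99 and 0.93 in small males. The 4 females lay above the 8 males, and the thorax mean was 1.20 ± 0.16 (SE, limma adjusted p = 2e-08).

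OtL016-A04 and OtL009-C06, positive in large male heads, were negative on all 12 thorax arrays, with means of -1.80 ± 0.24 and -1.62 ± 0.24 (SE, limma adjusted p = 2.42e-08 and 1.46e-07). OtL009-C06 had thorax values of -1.71, -2.92, -2.41 and -1.45 in females, -0.58, -1.03, -1.67 and -0.99 in large males and -1.44, -2.04, -1.94 and -1.30 in small males. OtL015-D03, by contrast, had the negative sign of the head on all 12 thorax arrays, from -1.66 to -0.89, a mean of -1.18 ± 0.09 (SE, limma adjusted p = 5.08e-15). OtP020-G07 had the negative sign of the legs, with a thorax mean of -1.09 ± 0.08 (SE, limma adjusted p = 1.24e-15).

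**Figure D5:**
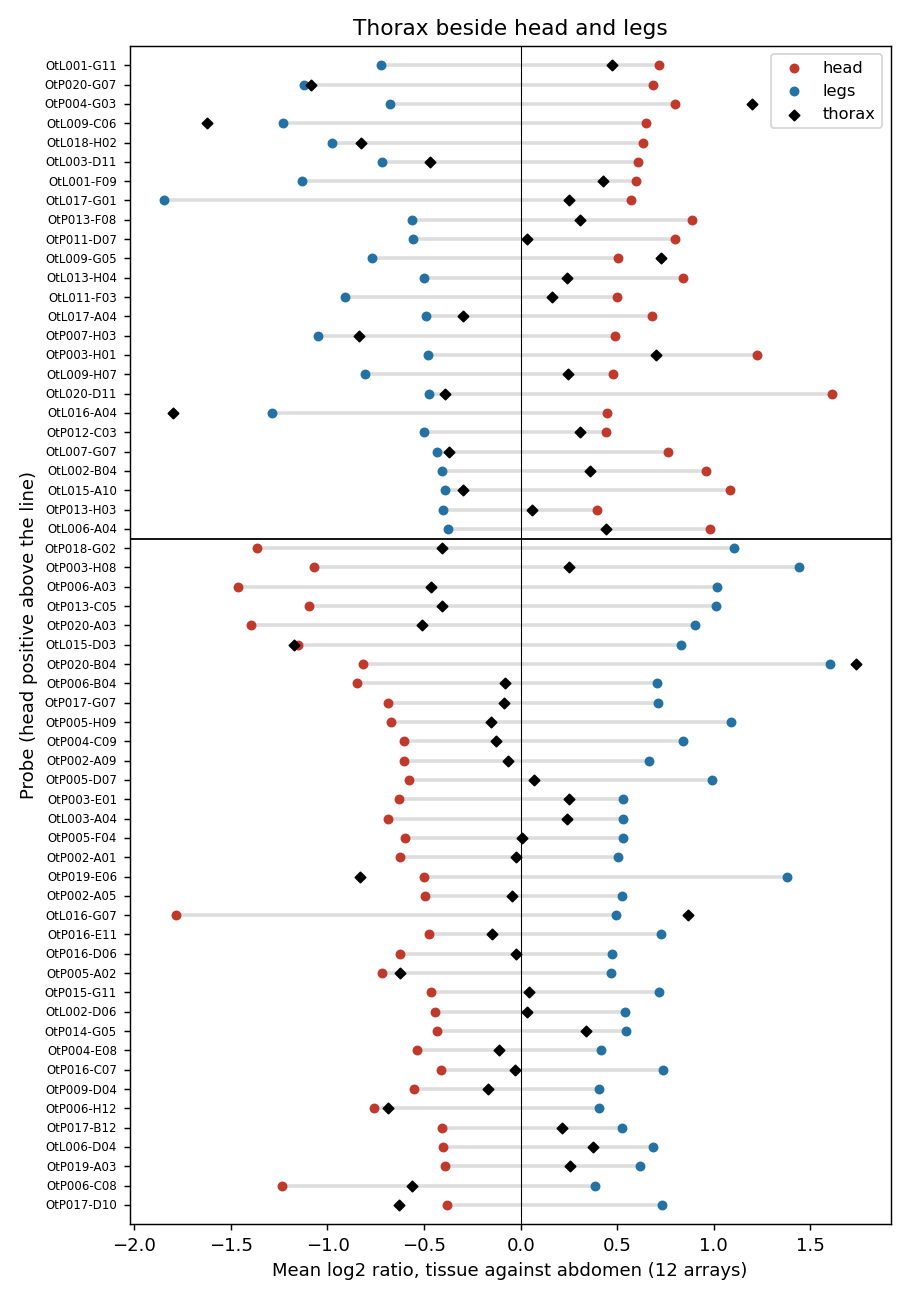
Mean log2 ratio against abdomen of each of the 60 members in the head (red), legs (blue) and thorax (black diamonds), 12 arrays each, with a grey bar spanning head and legs. The thorax falls on the grey bar in 51 members; it lies beyond it in 9, among them OtP020-B04 (1.74), OtP004-G03 (1.20), OtL016-A04 (-1.80) and OtL009-C06 (-1.62).

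In the thorax of O. nigriventris, 18 members passed (30%), 12 positive and 6 negative, against 25.7% of all probes, with 13.5% positive and 12.2% negative. The arrays carry probes of O. taurus, and the match of each probe to the other species was not tested. Of these 18, 8 had the sign of the O. taurus head and 10 that of the legs. OtP020-B04 was the highest, from -0.21 to 3.78 over 19 arrays with a median of 1.70 and 18 arrays positive, a mean of 1.80 ± 0.21 (SE, limma adjusted p = 5.38e-07). OtL006-A04 ran from -0.69 to 4.26 with a median of 1.60, a mean of 1.38 ± 0.24 (SE, limma adjusted p = 0.000103). OtL016-G07, the most negative member in the head of O. taurus, was positive on 18 of the 19 arrays at 1.28 ± 0.15 (SE, limma adjusted p = 4.52e-07), as it was in the thorax of O. taurus at 0.87 ± 0.13 (SE, limma adjusted p = 4.32e-07).

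Also in O. nigriventris, OtL001-G11 was positive on all 19 arrays, at 1.17 ± 0.14 (SE, limma adjusted p = 5.81e-07). The most negative were OtL017-G01 and OtP007-H03, each at -0.57, with SE of 0.19 and 0.12 and limma adjusted p of 0.0286 and 0.000658. The call of OtL017-G01 was lost without small male array 5 (-0.48), large male array 1 (-0.44) or large male array 3 (-0.45). Of the 12 members called in the thorax of both species, 11 had the same sign, as did 95.3% of the 870 probes (22.7% of all) called in both. Neither the morph nor the sex contrast within O. nigriventris passed for any member in limma, against 0% of all probes in both. At an unadjusted p under 0.05 there were 3 and 7 members, against 6.93% and 3.78% of all probes, with OtP011-D07 at -1.19 ± 0.36 (SE, limma adjusted p = 0.622) for large minus small males and OtL017-A04 at 0.57 ± 0.20 (SE, limma adjusted p = 1) for females minus males.

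In the brain against ganglia, 36 members passed (60%), 20 positive and 16 negative, against 51.8% of all probes, with 20.1% positive and 31.7% negative. Without small male brain 3 the count was 34. The median absolute value was 0.38 over the members and 0.20 over all probes. OtP006-B04 was negative on all 12 brain arrays, with -3.66, -4.00, -4.84 and -4.60 in females, -3.19, -3.26, -3.43 and -3.81 in large males and -2.64, -4.09, -2.83 and -3.62 in small males. Its mean of -3.66 ± 0.11 (SE, limma adjusted p = 5.2e-27) was the largest in size of any member's mean over the 12 arrays of a tissue. OtP007-H03 was also negative, at -0.96 ± 0.09 (SE, limma adjusted p = 1.09e-11).

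OtL006-A04 was positive on all 12 brain arrays, from 1.20 to 2.82 with a median of 1.99, a mean of 1.99 ± 0.13 (SE, limma adjusted p = 4.33e-16). OtP003-H08, negative in the head epidermis, ran from 1.33 to 2.49 in the brain, a mean of 1.90 ± 0.19 (SE, limma adjusted p = 2.85e-11). OtL017-G01 ran from 0.30 to 7.34, and the 7.34 was 1 small male brain array, whereas the other 3 small male brains were at 1.11, 1.37 and 0.82. OtL006-A04 thus had positive means in large male heads, in the brain of every class and in the thorax of both species (0.44 ± 0.13 in O. taurus, SE, limma adjusted p = 0.00306). It was negative on 11 of 12 legs arrays.

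Some members followed one another closely across the 47 arrays that the rule did not use, the thorax, brain, direct and O. nigriventris arrays. These correlations are descriptions: the probes share each array and its normalisation. The most alike pairs were OtL009-C06 with OtL016-A04, at r = 0.977, OtL002-B04 with OtL006-A04, at r = 0.955, and OtP018-G02 with OtP020-A03, at r = 0.902. Linking members at r of 0.8 or more, a limit set after seeing the data, joined 12 of 1770 pairs (0.678%), against 0.117% of pairs over all probes, and all 12 joined probes of the same direction. They formed 6 groups holding 15 members. The larger ones were OtP018-G02 with OtP006-A03, OtP013-C05 and OtP020-A03, and OtP005-H09 with OtP002-A09 and OtP016-C07. The remaining pairs were OtL018-H02 with OtL007-G07 and OtL003-A04 with OtP014-G05. Whether such probes report 1 gene was not tested, and the members cannot be counted as 60 separate transcripts.

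Identifiers of the array start with OtL or OtP, 1920 of the 3840 probes with OtP, and what the letters stand for is not given in the sources used here. Among the head-positive members 17 of 25 started with OtL, and among the head-negative members 30 of 35 started with OtP. Over all probes of the same sign pattern, 176 of 402 head-positive probes started with OtL and 269 of 423 head-negative probes with OtP. The members lay on 30 of the 40 plates, with at most 4 on 1 plate.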

How the data were processed

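The data were 71 arrays of 2 colours with 3840 probes and 0 missing values. The values the authors deposited were read as log2 ratios already normalised, since the tool named per the submitters' processing notes, limma, works in that base. Its version is not given in the sources used here, nor is the correction for background or the normalisation. The medians of the arrays lay between -0.17 and 0.17. Cy5 marked the focal RNA on 37 arrays and Cy3 on the other 34, and 81 of 82 pairs of opposite dye within a group correlated above 0, so ratios were not turned.

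From these values, tests were made with limma 3.58.1 in R 4.3.3 (lmFit, eBayes) on all probes, with Benjamini-Hochberg adjustment over 3840 probes, a threshold of 0.05 and a dye term per probe. The 48 O. taurus arrays of a tissue against its comparison tissue were fitted together as 12 groups of 4; the 4 direct and the 19 O. nigriventris arrays were fitted alone. The scripts were tested on simulated data. Figures used matplotlib 3.10.9 in Python 3.11.15.

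The members and lists were chosen with earlier results of these data known. Named were the 8 members of highest score in each direction, the 3 just inside and the 3 just outside the 60, up to 2 called members of the largest value in each direction per comparison, the member of smallest p where none passed, and the 3 pairs most alike. Other members named in the text were chosen after their values were seen. Alternatives were centring, scaling, array weights, the dye term, the arrays fitted, replicate blocks, arrays left out and the arrays that choose the members.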

Additional observations from a re-analysis of the deposited data

Results flagged for a closer look

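For the 8 members of highest score in each direction, the female, large male and small male groups of 4 head, legs and thorax arrays were examined for a single array far from the others by Dixon's criterion. Of 144 such groups 13 had one, where chance gives about 1 in 20 for separate groups. These groups were not separate, since the probes share arrays and some members are alike in profile. Of the 13, large male head 4 was the distant array in 4, among them the like probes OtP018-G02, OtP006-A03 and OtP020-A03. It had -0.034 for OtP018-G02, where its companions had -1.46 to -1.29, -0.13 for OtP006-A03, where they had -1.39 to -1.35, and -0.13 for OtP020-A03, where they had -1.33 to -1.27. For OtL001-F09 it had 1.17 and its companions -0.04 to 0.08. Large male legs 3 had -1.06 for OtP003-H08, where the others had 1.50 to 1.77, and -1.56 for OtP013-C05, where the others had 1.07 to 1.54. Small male head 4 had 1.66 for OtL009-C06, where the others had -1.08 to -0.70.

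The other 6 were spread over females and small males. For OtL003-D11, female head 4 had -0.88, where the others had 0.60 to 0.85, and female legs 4 had -1.56, where the others had -0.84 to -0.71. For OtP004-G03, small male legs 1 had -2.65, where the others had -0.43 to 0.02, and female thorax 1 had 2.47, where the others had 1.42 to 1.56. For OtL001-G11, small male legs 2 had -1.11, where the others had -0.54 to -0.44, and for OtP020-G07, female thorax 3 had -1.61, where the others had -1.17 to -1.09.

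The morph contrast differed between head and legs, by the test of that difference in limma, by 3.28 in OtL006-A04 and 3.09 in OtL002-B04. The sex contrast differed by -1.77 in OtL006-A04 and -1.69 in OtL002-B04. Every array of these tests entered the rule through the head or legs mean, so these differences are not independent of the choice of the probes.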

How the results depend on the processing

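No named value changed sign under any alternative run. Scaling each array to 1 spread left 12 members called for the morph contrast in the head (11 positive, 1 negative), 2 for its head minus legs difference, 3 for the sex contrast in the head, 0 for it in the thorax and 0 for its head minus legs difference, and gave 1 for the morph contrast in the brain. Fitting the compared groups alone gave 11 for the morph contrast in the head (10 positive, 1 negative), 3 for its head minus legs difference, 4 for the sex contrast in the thorax and 0 for its head minus legs difference. Array weights gave 11 for the sex contrast in the legs (1 positive, 10 negative), 5 in the thorax, 1 in the brain and 5 for head minus legs. Choosing 60 probes on the female arrays alone gave 10 for the morph contrast in the head, 1 for head minus legs and 0 on the direct arrays. With single arrays left out, counts ran from 0 to 15 on the direct arrays, 6 to 10 for the morph contrast head minus legs, 0 to 3 for the sex contrast head minus legs, 0 to 2 for it in the thorax and 0 to 1 in the brain. They ran from 19 to 21 for the morph contrast in the head, 26 to 31 for thorax, 28 to 38 for brain and 15 to 22 for O. nigriventris. The cause of these shifts was not tested. The rule chose 56 of the 60 again after scaling, 54 after centring, 47 with medians, 42 and 44 on Cy5 and Cy3 arrays alone, and 48, 40 and 45 without females, large males or small males. Replicate numbers paired the classes of a tissue unevenly. Same-numbered arrays correlated above 0.1 in 21 of 48 pairs (mean r 0.05), against 33 of 144 pairs of other numbers (mean r -0.02). Same-numbered female and small male arrays correlated at 0.19 to 0.59 in head and thorax, but at -0.40 to 0.46 in legs and brain. Between head and legs of 1 class, same-numbered arrays correlated above 0.1 in 8 of 12 pairs (mean r 0.201, against -0.07 for other numbers). With the number within sex or morph as a random block, head minus legs was called in 11 members for the morph and 2 for the sex contrast. With the replicate number as a fixed block, 22 members were called for the morph contrast in the head, 9 for its head minus legs difference and 16 in O. nigriventris, where OtL017-G01 was lost (adjusted p = 0.0812 in limma). No such fit was made for the direct arrays, whose 4 numbers mark 1 array each.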
